A study of Danio rerio with 6 samples.

Results

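The genes described here make, take up, export and store cholesterol and fatty acids. They were chosen by symbol, 39 in all, and 37 of these have a row among the 21860 genes of the deposited table. The symbols scd and plin2 have no row. Of the 37 genes, 18 belong to the sterol synthesis pathway, 4 to sterol sensing, 4 to lipoprotein and fatty acid uptake, 7 to efflux, lipoproteins and nuclear receptors, and 4 to fatty acid synthesis and lipid storage. All 37 passed the filter on low values, which is given under the processing below, and entered the tests. hsd17b7 and apoa1a did so through the control libraries alone, so they could enter only as genes high in control. hmgcra did so through mutant libraries alone, so it could not enter as a gene high in control.

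RNA came from brain cells of adult zebrafish that were sorted on green fluorescence driven by mpeg1, a macrophage gene whose reporter lines label microglia and other macrophages. There are 6 libraries in 3 groups of 2. The compound mutants carry csf1ra-/-;b+/-, which is a homozygous csf1ra mutation with 1 mutant copy of csf1rb, the second group carries csf1ra-/- with no csf1rb allele given, and the controls are wild type. The labels of the compound mutants disagree, since titles and genotypes give 1 mutant copy of csf1rb while the sample descriptions mark both receptor genes with a minus sign, and the genotype is followed here. All fish carry the mpeg1-GFP reporter on a TLF x AB background and were 9 to 12 months old. csf1ra and csf1rb encode the paired zebrafish receptors for colony-stimulating factor 1, which macrophages need. The comparisons ask how losing csf1ra alone, or csf1ra with 1 csf1rb copy, goes with the level of each lipid gene. Whether the paired libraries of a group are separate fish or pools is not labelled. Every p-value therefore reflects only how far these samples lie apart, which can be technical.

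Cells build cholesterol from acetyl-CoA through the mevalonate pathway, and HMG-CoA reductase is its main control point. When membranes lack sterol, SCAP escorts the SREBP transcription factors out of the endoplasmic reticulum to switch the pathway on, and INSIG proteins hold them back. When sterol is plentiful, oxysterols activate liver X receptors, which raise the exporters ABCA1 and ABCG1. Microglia and other brain macrophages clear lipid-rich debris and myelin, and so handle much cholesterol that they did not make.

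Levels are given as signal, headed CPM by the authors, which is the number of reads over an effective library size. Reads per library came to 15011963 and 13543998 in compound mutants, 8028386 and 7874979 in csf1ra-/- and 4241988 and 7830510 in control. The compound mutant libraries were the deepest but held the fewest genes with a read, at 18383 and 18047, against 20971 and 20119 in csf1ra-/- and 21452 and 20723 in control. Of the 37 lipid genes, 6 and 3 had no read in compound mutants, 1 and 3 in csf1ra-/- and 0 and 1 in control. The part of that lower number of genes in the low or absent reads of hsd17b7, fdft1, lpl, cd36, abcg1, apoa1a and apoa1b in compound mutants was not tested. One read was worth between 0.0809 and 0.157 units of signal. Control replicate 1 is the shallowest library and has the largest ratio of effective size to reads, at 1.73, against 0.802 to 1.07 in the other libraries. Summed markers of microglia and macrophages stood at 70326 and 86980 in compound mutants, 46382 and 35458 in csf1ra-/- and 37054 and 77097 in control, with all 25 markers in the table and none at 0 in a group. The sum hides markers that went both ways. In compound mutants against control, 18 of the 25 had a difference above 0, where 46.4% of all genes tested did, and 7 below. These differences ran from -2.21 to 2.71 on the log2(signal + 1) scale. Summed markers of oligodendrocytes, which need much cholesterol for myelin, stood at 2857 and 4502 in compound mutants, 527 and 615 in csf1ra-/- and 385 and 549 in control. Of the 12 oligodendrocyte markers in the table, 10 had a difference above 0 in compound mutants against control, 3 of these (mpz, cldnk and plp1b) rose by the test used below, and none was at 0. Summed markers of adipocytes stood at 6.96 and 2.85 in compound mutants, 0.702 and 127 in csf1ra-/- and 7.07 and 5.19 in control, with adipoqb and plin1 at 0 in compound mutants and adipoqb at 0 in csf1ra-/-. Summed markers of hepatocytes, which make apolipoproteins, stood at 74.3 and 60.2 in compound mutants, 82.7 and 41.4 in csf1ra-/- and 17.8 and 29.9 in control, with fgb and tfa at 0 in compound mutants and tfa at 0 in csf1ra-/-. The part of these cells in the results on lipid genes was not tested. In bulk libraries, fewer cells of a type and less RNA per cell cannot be told apart.

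The 37 genes covered a wide range, with values between 0 and 234 units of signal. Only 7 of them had at least 50 reads in every library, and 19 had fewer than 10 reads in at least 1 library. The 2 libraries of a group often stood far apart. On the log2(signal + 1) scale the median gap between replicates over the 37 genes was 0.66 in compound mutants, 0.66 in csf1ra-/- and 0.94 in control, against 0.57, 0.83 and 0.91 over all genes tested in the same order of groups. That spread sets the size of difference that could be called.

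**Figure D1:**
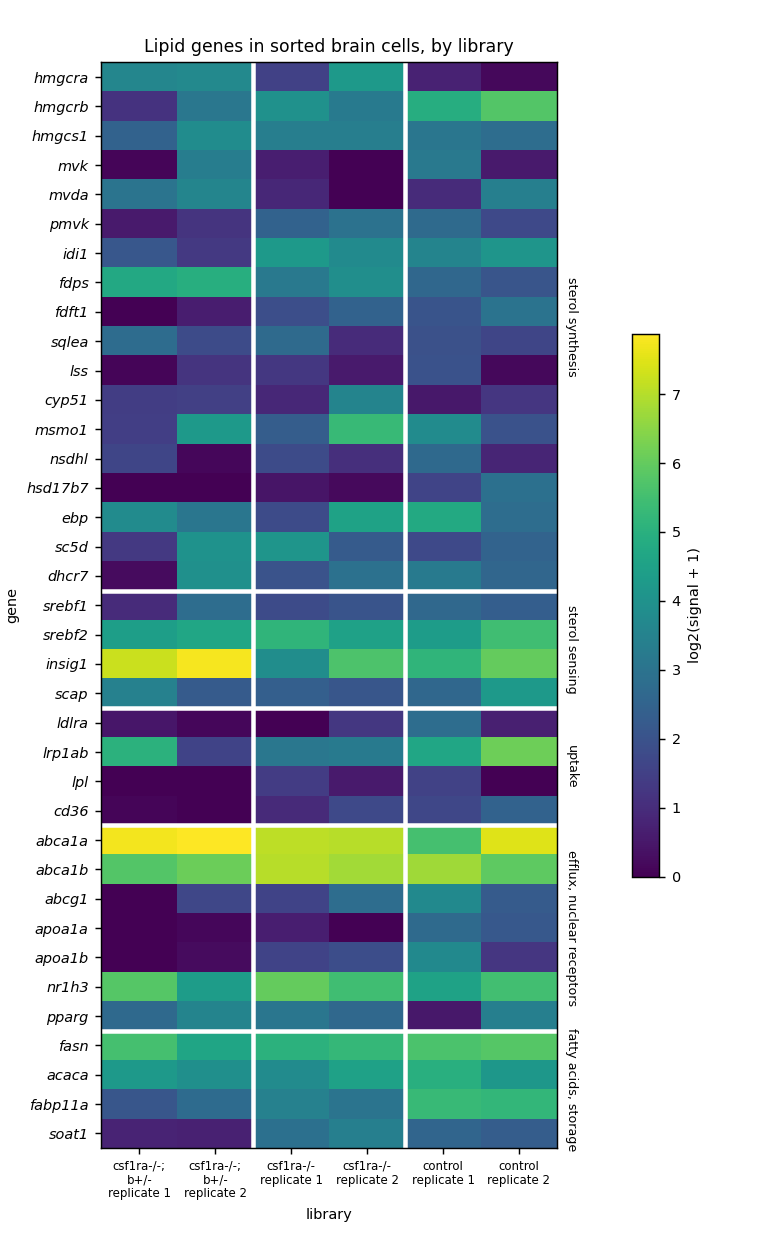
Level of each of the 37 lipid genes (rows, grouped by role) in each of the 6 libraries (columns), as log2(signal + 1) in colour. abca1a and insig1 reach the highest values, both in compound mutants, and 8 of the 18 sterol synthesis genes differ by more than 1 log2 unit between the 2 compound mutant libraries.

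The test is limma on log2(signal + 1), fitted to 21316 genes and adjusted by Benjamini and Hochberg over all of them, and differences below are on that scale with the SE of the fit and n = 2 libraries per group. In compound mutants against control, none of the 37 lipid genes passed an adjusted p of 0.05 in limma or in edgeR. Over all genes, limma called 0.868% higher and 0.347% lower, and edgeR called 0.98% higher and 0.694% lower. At an unadjusted limma p under 0.05, 3 of the 37 stood higher, namely hmgcra, fdps and insig1, where 11.8% of all genes did. At the same unadjusted p, 8 stood lower, namely hmgcrb, idi1, fdft1, hsd17b7, cd36, apoa1a, apoa1b and fabp11a, where 15% of all genes did. edgeR's unadjusted p under 0.05 gave the same 3 higher genes (8.67% of all genes) and, with lpl added, 9 lower genes (18.4% of all genes). DESeq2 made many more calls over all genes, 5.44% higher and 11.5% lower. It called hmgcra and fdps higher and hmgcrb, idi1, hsd17b7, cd36, apoa1a, apoa1b and fabp11a lower. In the authors' deposited table, a false discovery rate under 0.05 was given to hmgcra, fdps and insig1 as higher (6.5% of all genes) and to hmgcrb, hsd17b7, cd36, apoa1a, apoa1b and fabp11a as lower (14.6% of all genes). As shares of the 37 genes, the DESeq2 calls come to 5.41% higher and 18.9% lower, and the authors' to 8.11% higher and 16.2% lower, to be read against those shares of all genes.

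The libraries of compound mutants and control did not overlap for 18 of the 37 genes, or 48.6%, where 58.6% of all genes did not overlap. Of these 18 genes, 5 stood higher in compound mutants (25.3% of all genes do) and 13 stood lower (33.3% of all genes do). The median difference of the 37 genes was -0.57, with 11 above 0 and 26 below, beside a median of -0.16 over all genes. By role the median was -0.25 for sterol synthesis, -0.47 for sterol sensing, -1.73 for uptake, -0.41 for efflux and nuclear receptors and -1.16 for fatty acids and storage. The uptake median becomes -2.04 when lpl, which had no read in compound mutants, is put at a bound from pooled reads. That bound has no added 1, so this median mixes 2 scales and is not comparable with the others. The scale matters for signs near 0: scaled to total reads instead, the median of all genes moves to -0.70, so small differences are read against that shift.

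**Figure D2:**
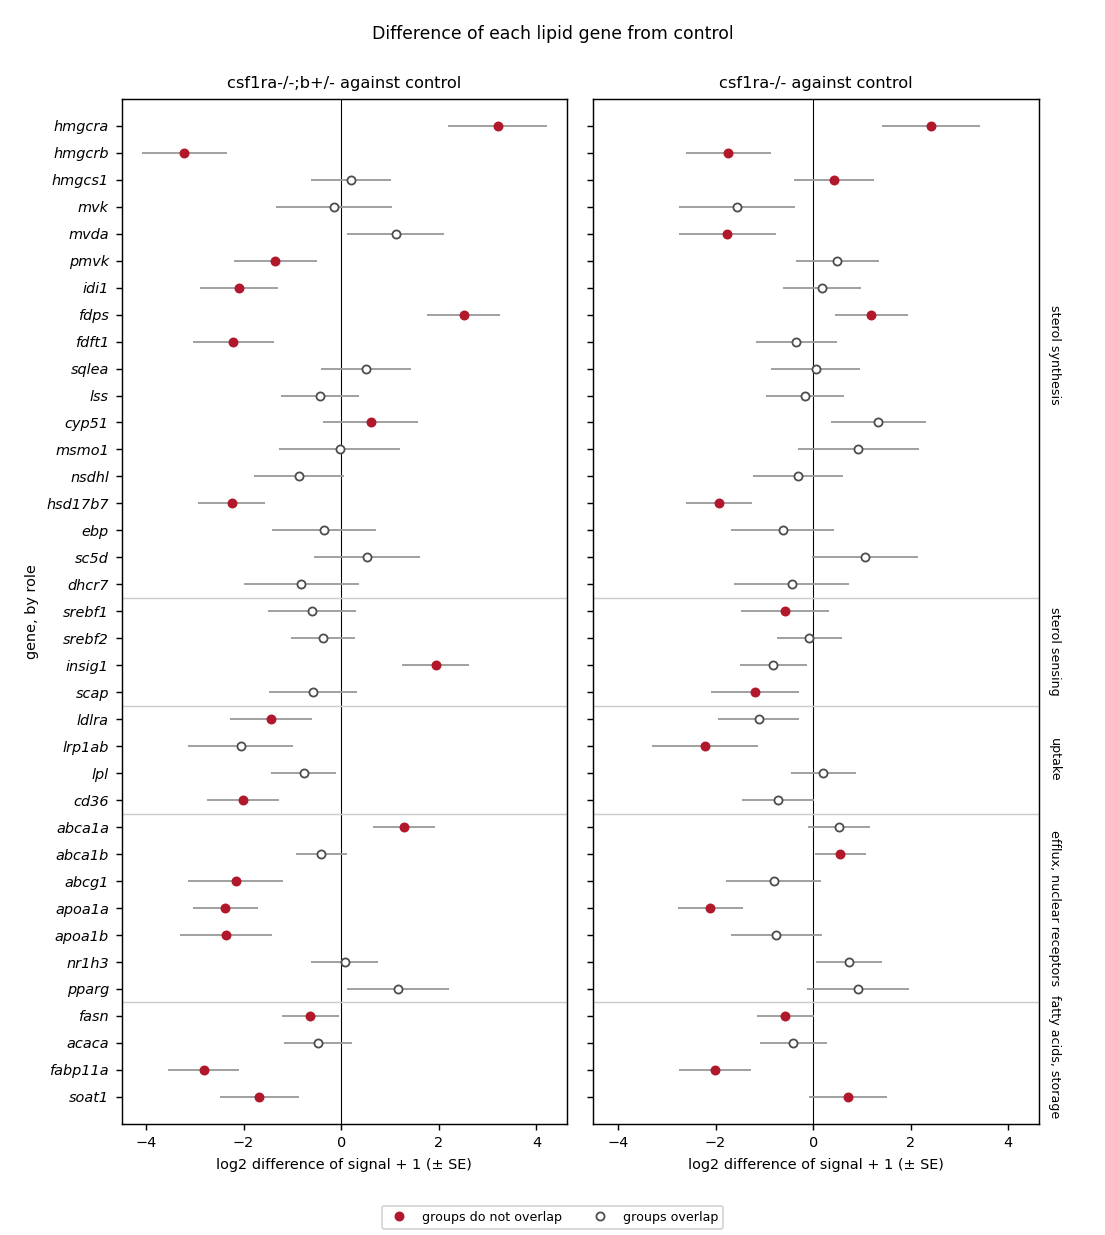
Difference of each lipid gene from control in compound mutants (left) and csf1ra-/- (right), in log2 units of signal + 1 with bars of 1 SE, 2 libraries per group. Filled points mark genes whose libraries do not overlap between the groups, 18 genes on the left and 14 on the right, and hmgcra is the highest gene in both panels, while hmgcrb is the lowest on the left (-3.22) but not on the right (-1.74), where lrp1ab is lowest (-2.21).

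Sterol synthesis is controlled at HMG-CoA reductase, of which zebrafish have a pair of genes, and these stood in opposite orders. hmgcra (ENSDARG00000052734) had 11.3 and 12.0 units of signal in compound mutants, 1.87 and 17.6 in csf1ra-/- and 0.680 and 0.123 in control. These are 140 and 130 reads in compound mutants, 16 and 112 in csf1ra-/- and 5 and 1 in control. Both mutant groups lay wholly above the controls, and the csf1ra-/- libraries differed widely from each other. Since hmgcra passed the filter through mutant libraries alone, it could not enter as a gene high in control. The difference from control was 3.20 ± 1.00 in compound mutants (limma adjusted p = 0.0995, DESeq2 adjusted p = 0.0119) and 2.41 ± 1.00 in csf1ra-/- (limma adjusted p = 0.461, DESeq2 adjusted p = 0.0746).

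hmgcrb (ENSDARG00000105206), the second reductase gene, had 1.21 and 7.64 units in compound mutants, 14.8 and 8.31 in csf1ra-/- and 29.1 and 53.8 in control. The 3 groups did not overlap, and compound mutants lay lowest and controls highest. The group mean was 9.37-fold lower in compound mutants than in control, a difference of -3.22 ± 0.87 (limma adjusted p = 0.0807, DESeq2 adjusted p = 0.00383). In csf1ra-/- the difference from control was -1.74 ± 0.87 (limma adjusted p = 0.534).

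Set against each other within a library, the reads of the reductase pair show the same contrast without any scaling between libraries. The share of hmgcra among reads of both genes was 90.3% (95% Clopper-Pearson interval 84.5% to 94.5%) and 61.0% (54.1% to 67.6%) in compound mutants. It was 11.2% (6.53% to 17.5%) and 67.9% (60.2% to 74.9%) in csf1ra-/-, and 2.28% (0.745% to 5.25%) and 0.229% (0.00579% to 1.27%) in control. So hmgcra gave most of the pair's reads in 3 of the 4 mutant libraries and almost none in control. The signal of both genes together was 12.5 and 19.6 in compound mutants, 16.7 and 25.9 in csf1ra-/- and 29.8 and 54.0 in control. Compound mutants thus lay below control in the sum, although hmgcra alone lay above it. These shares were chosen for description after the values had been seen. The intervals cover counting error only, the 2 genes may differ in length, and reads of 50 bases from a pair of related genes may have been assigned to either copy.

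**Figure D3:**
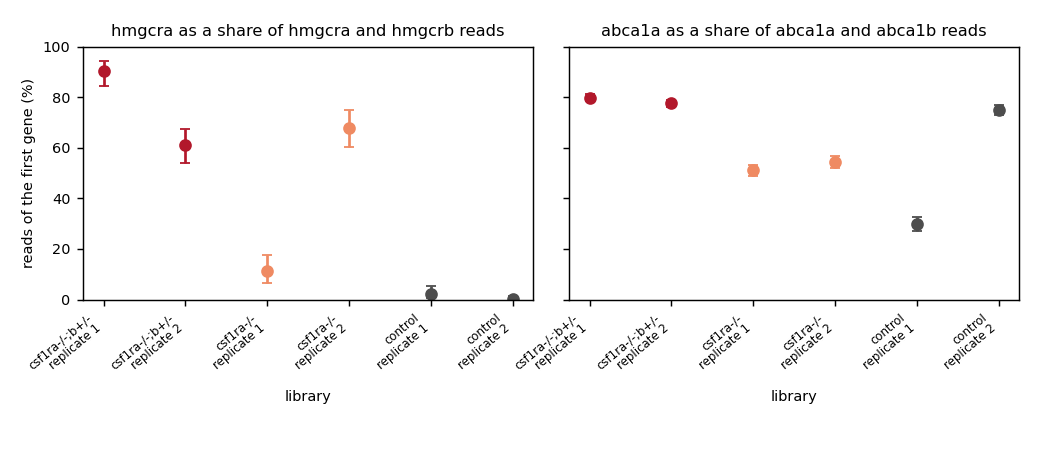
Share of reads (percent) that hmgcra takes of hmgcra and hmgcrb together (left) and that abca1a takes of abca1a and abca1b together (right), in each of the 6 libraries, with 95% Clopper-Pearson intervals. The hmgcra share is 2.28% and 0.229% in control and at least 11.2% in every mutant library, while the abca1a share of control replicate 2, at 75.1%, lies close to those of compound mutants.

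fdps and idi1, neighbours in the pathway, also differed from control in opposite directions in compound mutants. fdps (ENSDARG00000040890), which makes farnesyl diphosphate, had 26.2 and 29.8 units in compound mutants, 8.07 and 14.0 in csf1ra-/- and 5.17 and 3.21 in control. Its 3 groups did not overlap, with compound mutants highest and control lowest. The mean was 6.69-fold higher in compound mutants than in control, a difference of 2.51 ± 0.75 (limma adjusted p = 0.0939, DESeq2 adjusted p = 0.0290), and in csf1ra-/- the difference was 1.19 ± 0.75 (limma adjusted p = 0.635). idi1 (ENSDARG00000019976), the isomerase 1 step before it, had 3.40 and 1.47 units in compound mutants, 17.9 and 12.5 in csf1ra-/- and 10.6 and 16.2 in control. Only the compound mutants were low, and the csf1ra-/- and control libraries overlapped. The difference was -2.1 ± 0.80 from control (limma adjusted p = 0.133, DESeq2 adjusted p = 0.0318) and -2.28 ± 0.80 from csf1ra-/- (limma adjusted p = 0.313).

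hsd17b7 (ENSDARG00000088140), a ketoreductase of the late pathway, had no read in either compound mutant library, 3 and 1 reads in csf1ra-/- and 15 and 52 reads in control. With the reads of each group pooled, and a floor of 3 reads for a group without any, it was at least 33.6-fold lower in compound mutants than in control, in libraries that also held fewer genes with a read. That bound leaves out the spread between libraries, and hsd17b7 passed the filter through the controls alone. The limma difference of -2.25 ± 0.68 rests on the added 1 and is no bound (limma adjusted p = 0.0951, DESeq2 adjusted p = 0.0159). sqlea, the squalene epoxidase gene, had 5.91 and 2.49 units in compound mutants, 5.61 and 0.941 in csf1ra-/- and 2.86 and 2.1 in control. Its groups overlapped, the difference from control was 0.51 ± 0.92 (limma adjusted p = 0.751), and it turned to -0.052 when scaled to total reads.

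The other sterol synthesis genes showed no common direction. fdft1, the squalene synthase gene, had 0 and 0.552 units in compound mutants, 2.69 and 4.55 in csf1ra-/- and 3.13 and 7.04 in control, so only the compound mutants stood apart. pmvk, a kinase of the mevalonate pathway, had 0.486 and 1.29 units in compound mutants, 4.56 and 6.90 in csf1ra-/- and 5.58 and 2.35 in control, again with compound mutants below both other groups. mvda, the decarboxylase that follows it, had 7.20 and 10.9 units in compound mutants, 0.818 and 0 in csf1ra-/- and 0.952 and 9.63 in control. There the csf1ra-/- libraries were the low ones and the controls were split. mvk, the mevalonate kinase gene, had 0.0809 and 9.21 units in compound mutants, 0.585 and 0 in csf1ra-/- and 8.16 and 0.494 in control. Its csf1ra-/- libraries were also low, and both compound mutants and controls were split. dhcr7, whose enzyme reduces 7-dehydrocholesterol to cholesterol, had 0.162 and 14.6 units in compound mutants, 3.04 and 6.59 in csf1ra-/- and 8.30 and 5.06 in control. msmo1, a sterol methyl oxidase gene, had 1.78 and 17.8 units in compound mutants, 3.98 and 38.7 in csf1ra-/- and 12.8 and 2.96 in control, so every group held a high and a low library. hmgcs1, lss, cyp51, nsdhl, ebp and sc5d, which encode the synthase before the reductase and later enzymes, lay between 0.0809 and 26.3 units over all libraries. Of these 6 genes, only cyp51 had compound mutants apart from control, with 1.70 and 1.84 units in compound mutants and 0.408 and 1.36 in control. Of the 18 synthesis genes, 8 in compound mutants, 6 in csf1ra-/- and 7 in control had replicates more than 1 log2 unit apart.

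Among the sterol sensing genes, insig1 (ENSDARG00000010658) stood apart in compound mutants. It encodes the endoplasmic reticulum protein that retains SCAP and SREBP, and in mammals is itself an SREBP target. It had 151 and 217 units in compound mutants, 13.4 and 49.7 in csf1ra-/- and 34.3 and 63.4 in control. Both compound mutant libraries lay above all 4 others, and csf1ra-/- and control overlapped. The summed markers of oligodendrocytes and of neurons were also highest in both compound mutant libraries, although only 3 of 11 neuron markers had a difference above 0 from control. The part of these or other cells in the levels of insig1, hmgcra and fdps was not tested. The mean was 3.77-fold higher than in control, a difference of 1.93 ± 0.68 (limma adjusted p = 0.119, DESeq2 adjusted p = 0.0659), and the authors' deposited table gives a log2 fold change of 1.91 at a false discovery rate of 0.0334. Against csf1ra-/- the mean was 5.83-fold higher, a difference of 2.75 ± 0.68 (limma adjusted p = 0.235, DESeq2 adjusted p = 0.0109). In csf1ra-/- against control the difference was -0.82 ± 0.68 (limma adjusted p = 0.735), and it became 0.090 without csf1ra-/- replicate 1.

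The SREBP genes themselves showed no such separation in compound mutants. srebf2, whose protein drives sterol synthesis, had 20.5 and 24.2 units in compound mutants, 34.5 and 21.8 in csf1ra-/- and 19.5 and 43.0 in control. srebf1, whose protein drives fatty acid synthesis, had 0.971 and 6.08 units in compound mutants, 2.46 and 3.14 in csf1ra-/- and 5.30 and 4.08 in control. Compound mutants overlapped control for both genes, while both csf1ra-/- libraries lay below both controls for srebf1. The difference from control was -0.37 ± 0.66 for srebf2 (limma adjusted p = 0.748) and -0.60 ± 0.90 for srebf1 (limma adjusted p = 0.695). It turned to 0.19 for srebf2 without control replicate 2 and to 0.32 for srebf1 without compound mutant replicate 1. scap, the escort gene, had 9.95 and 3.78 units in compound mutants, 4.21 and 3.29 in csf1ra-/- and 5.17 and 17.8 in control, so only csf1ra-/- lay wholly below control.

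**Figure D4:**
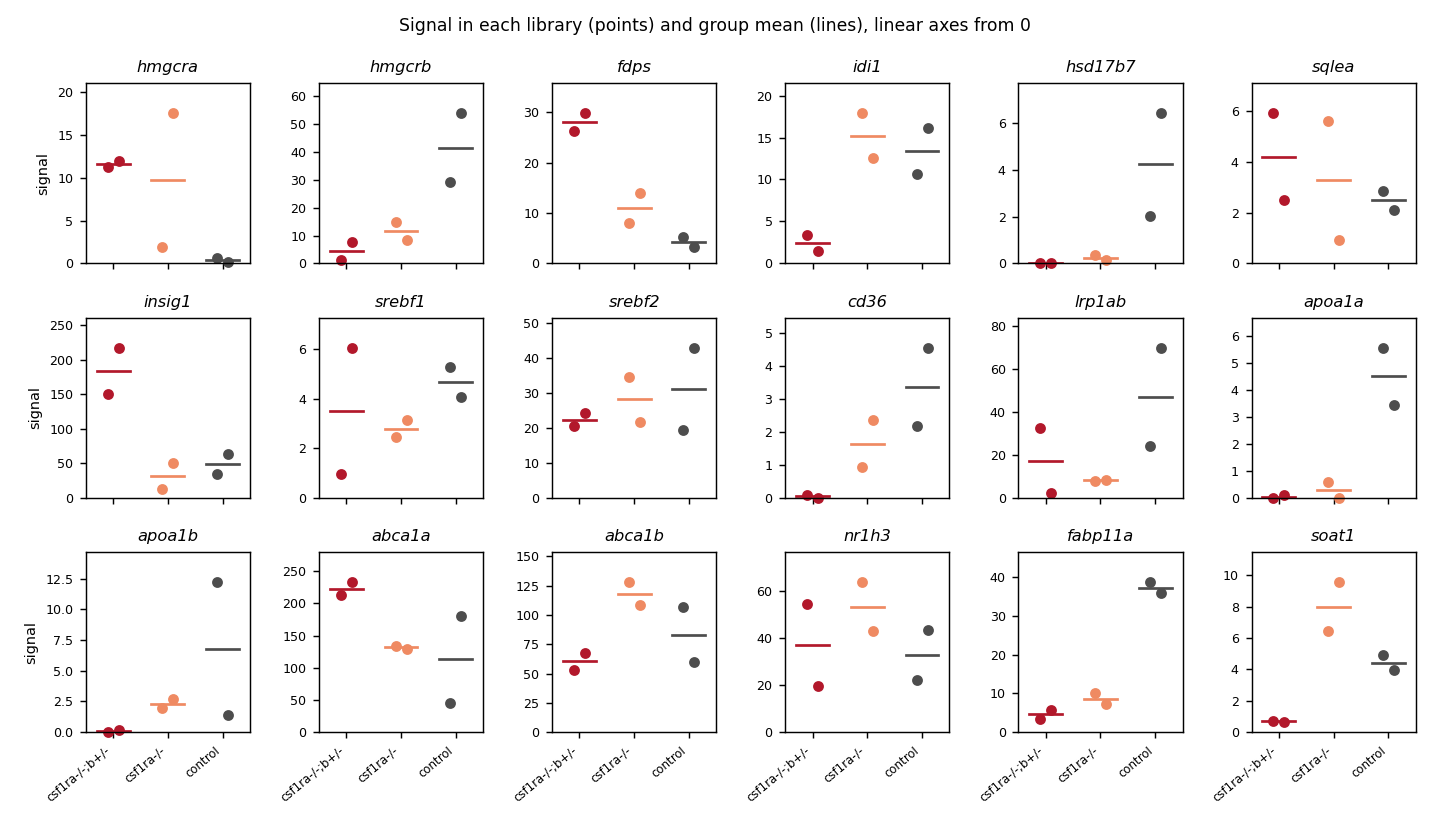
Signal (linear axes from 0, each gene on its own scale) of 18 lipid genes in the 6 libraries, with points for libraries and lines for group means. hmgcra, fdps and insig1 have both compound mutant libraries above both controls, at 11.3 and 12.0, 26.2 and 29.8, and 151 and 217 units, while fabp11a has all 4 mutant libraries far below the controls.

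All 4 uptake genes had a difference below 0 in compound mutants against control, where 53.6% of all genes tested did. cd36, lpl and ldlra reached a signal of 1 in no compound mutant library and passed the filter through control and csf1ra-/- libraries. These genes could therefore not enter as genes high in compound mutants. None passed in limma or edgeR. cd36 (ENSDARG00000032639), a scavenger receptor for fatty acids and oxidized lipoprotein, had 1 and 0 reads in compound mutants, 8 and 15 in csf1ra-/- and 16 and 37 in control. The groups compared did not overlap, and the pooled ratio of compound mutants to control was 0.0126 with a 95% counting interval of 0.000312 to 0.0730. Counting intervals and bounds from pooled reads leave out the spread between the libraries of a group. The difference was -2.02 ± 0.74 (limma adjusted p = 0.125, DESeq2 adjusted p = 0.0418), and it is no bound. lpl, which encodes lipoprotein lipase, had no read in either compound mutant library, 14 and 3 reads in csf1ra-/- and 14 and 0 in control. Pooled against a floor of 3 reads it was at least 7.01-fold lower in compound mutants than in control and at least 8.81-fold lower than in csf1ra-/-, but control replicate 2 also had none. ldlra, an LDL receptor gene, had 0.405 and 0.0921 units in compound mutants, 0 and 1.41 in csf1ra-/- and 5.98 and 0.617 in control, so control replicate 1 alone was high.

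lrp1ab (ENSDARG00000029146), a large endocytic receptor gene of the LDL receptor family, had 32.6 and 2.03 units in compound mutants, 7.72 and 8.47 in csf1ra-/- and 24.1 and 69.9 in control. The compound mutants were split, 1 library lying within the control range and 1 far below it, while both csf1ra-/- libraries lay below control. The difference of compound mutants from control was -2.06 ± 1.08 (limma adjusted p = 0.246), and with 1 library left out it ran from -3.80, without compound mutant replicate 1, to -0.33, without compound mutant replicate 2.

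Among the efflux genes, the ABCA1 pair was abundant and the apolipoprotein A1 pair was scarce. abca1a (ENSDARG00000074635) and abca1b (ENSDARG00000079009) encode the exporter that loads cholesterol onto apolipoprotein A1. They fall outside the rule for named genes and were added after their values had been seen. abca1a had 213 and 234 units in compound mutants, 134 and 129 in csf1ra-/- and 45.4 and 181 in control. Compound mutants lay above all other libraries, but the controls differed from each other by more than the groups did, and the difference was 1.29 ± 0.64 (limma adjusted p = 0.224). Without control replicate 1 it was 0.30. abca1b had 53.4 and 67.4 units in compound mutants, 128 and 108 in csf1ra-/- and 107 and 59.9 in control, so compound mutants overlapped control and lay below csf1ra-/-. Its difference from control was -0.41 ± 0.52 (limma adjusted p = 0.638), and it became 0.0026 without control replicate 1.

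The share of abca1a among reads of the pair was 79.9% and 77.6% in compound mutants, 51.1% and 54.5% in csf1ra-/- and 29.9% and 75.1% in control. It was close between replicates in both mutant groups and not in control. abcg1, a partner exporter gene, had 0 and 2.21 units in compound mutants, 1.99 and 5.96 in csf1ra-/- and 12.2 and 3.83 in control. Compound mutants lay below control, and csf1ra-/- overlapped both.

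apoa1a (ENSDARG00000012076) and apoa1b (ENSDARG00000101324) encode apolipoprotein A1, the protein of high-density lipoprotein. apoa1a had 0 and 1 reads in compound mutants, 5 and 0 in csf1ra-/- and 41 and 28 in control. The pooled ratio of compound mutants to control was 0.00964, with a 95% counting interval of 0.000241 to 0.0555. Both mutant groups lay below control, and the difference in compound mutants was -2.37 ± 0.67 (limma adjusted p = 0.0832, DESeq2 adjusted p = 0.0413). This limma difference rests on the added 1 and is no bound. Since apoa1a passed the filter through the controls alone, its mutant libraries could only lie below control. apoa1b had 0 and 2 reads in compound mutants, 17 and 17 in csf1ra-/- and 90 and 11 in control, with a pooled ratio of compound mutants to control of 0.0132 (95% counting interval 0.00157 to 0.0488). That interval leaves out the wide gap between the controls. The difference of apoa1b was -2.36 ± 0.93 (limma adjusted p = 0.146, DESeq2 adjusted p = 0.00810), running from -3.61 without control replicate 2 to -1.12 without control replicate 1. It also rests on the added 1 and is no bound. The hepatocyte marker sums given above were higher in every mutant library than in control, although 5 of the 6 markers tested had a difference below 0 in compound mutants.

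Of the nuclear receptors, nr1h3, which encodes liver X receptor alpha, had 54.5 and 19.4 units in compound mutants, 63.8 and 42.8 in csf1ra-/- and 22.2 and 43.6 in control. The groups overlapped, and the difference of compound mutants from control was 0.07 ± 0.68 (limma adjusted p = 0.960), with a sign that changed with the scaling and with the library left out. pparg, the receptor that drives lipid storage genes, had 5.42 and 10.8 units in compound mutants, 7.48 and 5.33 in csf1ra-/- and 0.408 and 9.63 in control, so control replicate 1 alone was low.

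fabp11a (ENSDARG00000017299), a fatty acid binding protein gene related to mammalian FABP4, had the smallest limma p of the 37 genes in compound mutants against control. It had 3.32 and 5.80 units in compound mutants, 10.1 and 7.21 in csf1ra-/- and 38.8 and 35.8 in control. Every mutant library lay far below the controls, which agreed closely, and the compound mutants lay below csf1ra-/-. The mean was 8.18-fold lower in compound mutants than in control, a difference of -2.82 ± 0.74 (limma adjusted p = 0.0759, DESeq2 adjusted p = 9.4e-04). In csf1ra-/- it was 4.32-fold lower, a difference of -2.01 ± 0.74 (limma adjusted p = 0.421, DESeq2 adjusted p = 0.104). The authors' deposited table gives fabp11a a log2 fold change of -3.03 in compound mutants against control, at a false discovery rate of 0.0147.

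soat1 (ENSDARG00000062297), whose enzyme esterifies cholesterol for storage in droplets, had 0.728 and 0.645 units in compound mutants, 6.43 and 9.57 in csf1ra-/- and 4.90 and 3.95 in control. The 3 groups did not overlap, with compound mutants lowest and csf1ra-/- highest. In reads, the compound mutants had 9 and 7. The mean was 6.45-fold lower in compound mutants than in control, a difference of -1.68 ± 0.81 (limma adjusted p = 0.211, DESeq2 adjusted p = 0.0928), and the difference from csf1ra-/- was -2.39 ± 0.81 (limma adjusted p = 0.303, DESeq2 adjusted p = 0.0567). fasn, which encodes fatty acid synthase, had 46.3 and 23.6 units in compound mutants, 32.4 and 36.9 in csf1ra-/- and 49.4 and 54.6 in control, so all 4 mutant libraries lay below both controls. acaca, the acetyl-CoA carboxylase gene that supplies it, had 18.0 and 14.0 units in compound mutants, 12.9 and 21.8 in csf1ra-/- and 30.1 and 16.8 in control, and the groups overlapped.

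The DESeq2 calls of lipid genes in compound mutants against control changed when a library was left out. Its calls over all genes also fell in every such fit, so a lost call cannot be read as particular to these genes. With each of the 6 libraries left out in turn, DESeq2 called fabp11a in 5 of 6 fits and lost it without control replicate 1. It called hmgcrb in 4 of 6 fits, not without control replicate 2 or compound mutant replicate 1, and apoa1b in 4, not without control replicate 1 or compound mutant replicate 1. hmgcra and fdps were called in 3 of 6 fits each, and neither was called without control replicate 2 or without either compound mutant library. cd36 was called in no such fit, idi1 and apoa1a in 1 each and hsd17b7 in 2. These fits were chosen after the data had been seen, and the group left with 1 library is assumed to vary like the others.

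In csf1ra-/- against control, no lipid gene passed in limma, edgeR or DESeq2 or in the authors' deposited table. DESeq2 gave lss, cyp51, nsdhl, hsd17b7, ldlra, lpl, cd36 and apoa1a no adjusted p there, so these genes could not pass in it. limma called 0% of all genes in either direction, edgeR 0.0235% higher and 0.0141% lower, DESeq2 0.868% higher and 0.347% lower, and the deposited authors' list 0.618% higher and 0.133% lower. At an unadjusted limma p under 0.05 hmgcra stood higher (5.37% of all genes) and hsd17b7, apoa1a and fabp11a lower (4.8% of all genes). The unadjusted edgeR p gave hmgcra as higher (3.95% of all genes) and lrp1ab and fabp11a as lower (2.96% of all genes). Libraries did not overlap for 14 of the 37 genes, 37.8%, where 38.8% of all genes did not overlap. Of these, 5 stood higher in csf1ra-/- (18.6% of all genes do) and 9 lower (20.2% of all genes do). The median difference was -0.35, with 15 genes above 0 and 22 below, beside -0.03 over all genes. By role it was -0.06 for sterol synthesis, -0.70 for sterol sensing, -0.92 for uptake, 0.53 for efflux and nuclear receptors and -0.49 for fatty acids and storage. Compound mutants and csf1ra-/- were set against the same 2 controls, so their differences from control are not independent.

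In compound mutants against csf1ra-/-, no lipid gene passed in limma, which called 0% of all genes higher and 0.00938% lower, or in edgeR, which called 0.0422% in each direction. At an unadjusted limma p under 0.05, mvda and insig1 stood higher (6.44% of all genes) and idi1, fdft1 and soat1 lower (6.39% of all genes). The unadjusted edgeR p gave mvda and insig1 as higher (5.39% of all genes) and idi1, lpl, cd36, apoa1b and soat1 as lower (11.8% of all genes). DESeq2 called insig1 higher, where it called 2.29% of all genes higher, and lost it without csf1ra-/- replicate 1 and without either compound mutant library. DESeq2 called none of the 37 lower, where it called 4.55% of all genes lower. The authors' deposited table also gives insig1 as higher, with 1.99% of all genes, and none of the 37 as lower, with 5.66% of all genes. Libraries of the 2 mutant groups did not overlap for 15 of the 37 genes, where 49% of all genes did not, with 4 higher in compound mutants (20% of all genes) and 11 lower (28.9% of all genes). The median difference of the 37 genes was -0.32, beside -0.17 over all genes.

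With both mutant groups averaged and set against control, no lipid gene passed in limma, which called 0.0891% of all genes higher and 0.0235% lower, or in edgeR, which called 0.164% higher and 0.183% lower. At an unadjusted limma p under 0.05, 2 stood higher (9.21% of all genes) and 5 lower (10.9% of all genes), and the unadjusted edgeR p gave 2 higher (6.12% of all genes) and 7 lower (14.5% of all genes). The difference was 2.81 ± 0.87 for hmgcra (limma adjusted p = 0.139), -2.48 ± 0.75 for hmgcrb (limma adjusted p = 0.135), -2.41 ± 0.64 for fabp11a (limma adjusted p = 0.112) and -2.09 ± 0.59 for hsd17b7 (limma adjusted p = 0.123). DESeq2 called hmgcra higher (3.34% of all genes) and hmgcrb, hsd17b7 and fabp11a lower (4.82% of all genes). The authors' deposited table gives hmgcra as higher at a false discovery rate under 0.05 (3.54% of all genes). At the same rate it gives hmgcrb, hsd17b7, apoa1a, apoa1b and fabp11a as lower (9.18% of all genes). All 4 mutant libraries lay apart from both controls for 7 genes, with hmgcra and fdps above (10.9% of all genes) and hmgcrb, hsd17b7, apoa1a, fasn and fabp11a below (13.6% of all genes). Of these, hsd17b7 and apoa1a passed the filter through the controls alone, so they could lie apart only in that direction. hmgcra passed through mutant libraries alone, so it could lie apart only as higher.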

How the data were processed

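RNA of mpeg1-GFP sorted brain cells was sequenced as single reads of 50 bases, per the labels. HISAT2, edgeR and the GRCz10 build are named in the submitters' processing notes. How reads were counted per gene is not given in the sources used here. Values deposited as signal, headed CPM by the authors, are reads over an effective library size, and 100% of them were whole reads within 0.001. The log2 fold changes and the adjusted p-value columns, headed FDR (false discovery rate), are the authors' own as deposited. Another 15 columns were not used. No coordinates or sequences were used.

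limma 3.58.1 with trend and robust estimation (R 4.3.3) was fitted to log2(signal + 1) of the 21316 genes that reached a signal of 1 in 2 or more libraries, with 3 group means and two-sided p-values adjusted over all genes. edgeR 4.0.16 and DESeq2 1.42.0 on recovered reads, other scalings, pseudocounts of 0.25 and 4, other filters, a replicate block and each library left out were alternatives. The limma and edgeR fits were tested on simulated data, with changes planted only in genes of higher mean signal. That simulation does not cover lipid genes with few reads, and the DESeq2 fits were not tested in this way. DESeq2 gave some genes no adjusted p, and these count as not called in its shares of all genes. Of the lipid genes, lpl had none in any comparison, and lss had none outside compound mutants against control. The members and lists were chosen with earlier results of these data known.

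Full values are given for members past 0.05 in limma, edgeR or DESeq2 in any comparison, the 2 members of each role with the smallest limma p in compound mutants against control, and hmgcra, sqlea, srebf2 and nr1h3. Of each list of further pathway genes, up to 3 with the smallest p are named, and apoeb was added beside apoea. Outside the rule for members, library values are also given for fdft1, pmvk, mvda, mvk, dhcr7, msmo1 and cyp51. The same holds for scap, lpl, ldlra, abca1a, abca1b, abcg1, pparg, fasn and acaca. hmgcs1, lss, nsdhl, ebp and sc5d are described by range. Marker sums also covered other cells. Radial glia and ependyma stood at 2234 and 1795 in compound mutants, 1071 and 900 in csf1ra-/- and 913 and 2750 in control. Neurons stood at 346 and 687, 92.1 and 78.1, and 80.7 and 90.6 in the same order of groups, endothelium and mural cells at 618 and 496, 862 and 657, and 662 and 1191, and red cells and thrombocytes at 6.15 and 0.829, 6.55 and 11.6, and 22.4 and 19.4. Neutrophils stood at 738 and 205, 322 and 260.0, and 180 and 236, B lymphocytes at 212 and 404, 220.2 and 441, and 70.6 and 58.4, and T and natural killer cells at 36.2 and 33.4, 18.2 and 46.1, and 17.8 and 30.4. Sums can rest on few markers: in compound mutants against control the difference was above 0 for 3 of 11 neuron markers (median -0.75), 2 of 6 neutrophil markers (median -1.34), 6 of 13 of radial glia and ependyma, 3 of 9 of endothelium and mural cells, 1 of 5 of red cells and thrombocytes, 6 of 6 of B lymphocytes and 3 of 6 of T and natural killer cells.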

Additional observations from a re-analysis of the deposited data

How the results depend on the processing

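In compound mutants against control limma called 259 genes, 185 higher and 74 lower. Scaled to total reads it called 310, 126 higher and 184 lower, and the median over all genes was -0.70 in place of -0.16, -0.45 in place of -0.03 in csf1ra-/- against control and -0.56 in place of -0.10 in the mean of both groups. Counts of all genes moved as follows. For compound mutants against control DESeq2 gave 3618, a pseudocount of 0.25 gave 95, at least 50 reads in 2 libraries 872, only the libraries compared 0, 1 library left out 0 to 137 and DESeq2 with 1 left out 1494 to 3407. For csf1ra-/- against control (0 called) edgeR gave 8, with median-ratio scaling 8, DESeq2 259, total reads 7, a pseudocount of 4 gave 3, at least 50 reads 13, only the libraries compared 19, 1 left out 0 to 12 and DESeq2 with 1 left out 87 to 434. For compound mutants against csf1ra-/- (2 called) edgeR gave 18, with median-ratio scaling 11, DESeq2 1459, total reads 39, a pseudocount of 4 gave 4, at least 50 reads 48, no robust estimation 5, only the libraries compared 0, 1 left out 0 to 8 and DESeq2 with 1 left out 559 to 1365. For both mutant groups against control (24 called) edgeR gave 74, with median-ratio scaling 69, DESeq2 1739, total reads 58, at least 50 reads 240, no robust estimation 43, 1 left out 0 to 92 and DESeq2 with 1 left out 825 to 1635. A fit of only the libraries compared does not apply there.

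Of the lipid genes, none was called in limma or edgeR, except in compound mutants against control with at least 50 reads in 2 libraries. There 2 were called, fabp11a and hmgcrb, both as lower. That fit tested only 23 of the lipid genes, and 12620 genes in all in place of 21316. In compound mutants against control it called 872 of all genes, 629 higher and 243 lower. DESeq2 called 9 in that comparison, 3 to 8 with 1 library left out, 1 in compound mutants against csf1ra-/- (0 to 2), 4 in the mean of both groups (1 to 6) and 0 in csf1ra-/- against control (0 to 1, hmgcra without csf1ra-/- replicate 1). The cause of these differences between tools was not tested. Over all genes tested, deviations of same-numbered libraries correlated at 0.0060 to 0.018 between groups. That cannot exclude a pairing or batch that affects some genes, and none is labelled. With a replicate block, limma called 11 genes in csf1ra-/- against control, 576 in compound mutants against control, 34 in compound mutants against csf1ra-/- and 153 in the mean of both, and 0 lipid genes in each.

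Of 799 values of 48 named differences, 788 kept their direction and 11 did not. In compound mutants against control sqlea was -0.052 by total reads. With 1 library left out, srebf1 ran from -1.52 to 0.32 (without compound mutant replicate 1), srebf2 from -0.92 to 0.19 (without control replicate 2), abca1b from -0.82 to 0.0026 (without control replicate 1) and nfya, an NF-Y subunit gene, from -0.011 (without control replicate 1) to 3.13. nr1h3 was -0.044 in edgeR with median-ratio scaling, -0.044 in DESeq2 and -0.63 by total reads. With 1 library left out it ran from -0.65 (without compound mutant replicate 1) to 0.79 and was also below 0, at -0.41, without control replicate 1. insig1 in csf1ra-/- against control ran from -1.72 to 0.090 (without csf1ra-/- replicate 1). Few reads limit the precision of many members, since 19 of the 37 had under 10 reads in some library. The deepest libraries, of compound mutants, had 13 and 9 such genes, and control replicate 1, the shallowest, had 4. Both of the deepest libraries are compound mutants, so depth and genotype cannot be told apart here.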

Other observations

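Genes of the same pathways outside the 37 were counted from fixed lists in compound mutants against control. Of 11 further sterol synthesis and sensing genes tested, 5 were above 0 and 6 below (median -0.16), of 16 rows of uptake and transport genes 6 and 10 (median -0.40), and of 23 efflux and lipoprotein genes 8 and 15 (median -0.78). None of these passed in limma. Of 26 fatty acid synthesis and activation genes 14 were above 0, 11 below and 1 at 0 (median 0.36), of 28 fatty acid oxidation genes 19 and 9 (median 0.58), and of 18 storage and lipid binding genes 10 and 8 (median 0.31). Beside these, 46.4% of all genes tested were above 0, with a median of -0.16. In these 3 lists 1 gene passed in limma, fabp2, out of 0.868% of all genes called higher.

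fabp2, the intestinal-type fatty acid binding protein gene, rose in compound mutants, and it passed the filter only with their libraries. No control library reached a signal of 1, so fabp2 could not enter as a gene high in control. It had 28.1 and 24.0 units of signal in compound mutants, 1.29 and 0 in csf1ra-/- and 0 and 0.864 in control, a difference of 4.30 ± 0.86 from control (limma adjusted p = 0.0496). Over its alternatives the adjusted p ran from 0.00169 to 0.211, and it lost the call in 13 of them. Its direction was the opposite of that of fabp11a.

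Of the 26 fatty acid synthesis genes, 10 had compound mutants wholly above control, where 25.3% of all genes did, and 9 wholly below, where 33.3% did. The 3 with the smallest p are all higher in compound mutants, and none passed in limma. tecrb, of the very long chain fatty acid cycle, had 70.3 and 57.3 units in compound mutants, 26.3 and 11.3 in csf1ra-/- and 11.4 and 2.84 in control (difference 3.22 ± 0.79, limma adjusted p = 0.0690). acacb, the acetyl-CoA carboxylase gene linked to control of fatty acid oxidation, had 127 and 95.8 units in compound mutants, 31.6 and 27.6 in csf1ra-/- and 22.9 and 40.9 in control (difference 1.81 ± 0.56, limma adjusted p = 0.0981). hacd3, of the same elongation cycle, had 7.93 and 12.1 units in compound mutants, 3.62 and 0.314 in csf1ra-/- and 0.816 and 0 in control. It passed the filter only with compound mutant libraries, so it could not enter as a gene high in control.

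In oxidation, etfb, an electron transfer flavoprotein subunit gene, had 38.1 and 52.3 units in compound mutants, 46.8 and 29.2 in csf1ra-/- and 5.85 and 1.98 in control, so both mutant groups lay above control (difference in compound mutants 3.34 ± 0.72, limma adjusted p = 0.0541). eci1, an enoyl-CoA isomerase gene, had 32.6 and 30.4 units in compound mutants, 6.78 and 16.5 in csf1ra-/- and 2.99 and 3.33 in control (difference 2.96 ± 0.77, limma adjusted p = 0.0752). cpt1b, a carnitine palmitoyltransferase gene, stood the other way, with 1.38 and 0 units in compound mutants, 10.5 and 2.82 in csf1ra-/- and 22.3 and 15.9 in control (difference -3.69 ± 0.91, limma adjusted p = 0.0717).

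Of the uptake genes outside the 37, mylipb had 73.3 and 106 units in compound mutants, 13.7 and 2.82 in csf1ra-/- and 7.48 and 20.0 in control (difference 2.74 ± 0.83, limma adjusted p = 0.0954). In mammals the MYLIP protein marks LDL receptors for breakdown. ldlrb, an LDL receptor gene, had 0 and 0.460 units in compound mutants, 1.52 and 2.51 in csf1ra-/- and 5.85 and 8.40 in control (difference -2.73 ± 0.80, limma adjusted p = 0.0894). lrp2a, the megalin gene, had 2.59 and 1.75 units in compound mutants, 10.1 and 11.1 in csf1ra-/- and 27.2 and 12.2 in control (difference -2.62 ± 0.80, limma adjusted p = 0.0969).

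Of the lipoprotein genes, apoc1, an abundant apolipoprotein gene, had 2850 and 1995 units in compound mutants, 6791 and 3381 in csf1ra-/- and 6630 and 13984 in control (difference -2.01 ± 0.56, limma adjusted p = 0.0831). cyp7a1, the first enzyme gene of bile acid synthesis, was listed at 0 in both compound mutant libraries, at 0.234 and 0 units in csf1ra-/- and at 2.86 and 8.03 in control. apoea, an apolipoprotein E gene, was listed at 0 in all 4 mutant libraries and at 3.81 and 1.73 units in control. apoeb, a far more abundant apolipoprotein E gene, is added here outside the naming rule. It had 7934 and 6244 units in compound mutants, 3438 and 2622 in csf1ra-/- and 4128 and 11447 in control. nceh1a, a cholesteryl ester hydrolase gene, was at 0 in both compound mutant libraries, 0.351 and 0.314 units in csf1ra-/- and 1.90 and 3.33 in control. cyp7a1, apoea and nceh1a passed the filter through the controls alone, so they could enter only as genes high in control. cidec, of lipid droplet growth, had 37.9 and 2.76 units in compound mutants, 2.81 and 0 in csf1ra-/- and 0 in both controls. It passed the filter only with compound mutant libraries, so it could not enter as a gene high in control. stard4, a cholesterol transfer protein gene, had 1.94 and 2.03 units in compound mutants, 5.38 and 1.1 in csf1ra-/- and 6.53 and 14.9 in control.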
